A study of Homo sapiens with 10 samples.

Results

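The HOX genes were followed in HEK-293 cells, a line derived from human embryonic kidney, after small interfering RNAs (siRNAs) against either of 2 long noncoding RNAs. The members were all genes whose symbol in the deposited tables was HOXA, HOXB, HOXC or HOXD followed by digits only. The rule found 35 of the 18480 genes in each of the 2 tables, with 10 in the HOXA cluster, 10 in HOXB, 7 in HOXC and 8 in HOXD, and with the same probe sets in both tables. HOXA9, HOXC4, HOXC6 and HOXD4 were not analysed here. Cells received 10 nM of an siRNA with the transfection reagent RNAiMax, and all 5 groups share that treatment and the one cell line, with no untransfected group among them. The groups of 2 arrays each were a scramble siRNA, LINC00324 siRNA 1, LINC00324 siRNA 2, LOC400043 siRNA 1 and LOC400043 siRNA 2, and the labels call the arrays of a group biological replicates. Total RNA was hybridised to Affymetrix HuGene-1_0-st arrays, which carry 20 to 34 probes for each HOX gene. With 2 arrays in a group, the precision of each value is limited.

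HOX genes encode homeodomain transcription factors that give cells their position along the body axis. They lie in 4 clusters, HOXA on chromosome 7, HOXB on chromosome 17, HOXC on chromosome 12 and HOXD on chromosome 2, and genes at the same place in different clusters form 13 paralogue groups. Low-numbered genes are used toward the head, high-numbered ones toward the tail, and the order within a cluster follows that axis. Trithorax complexes keep the clusters active and Polycomb complexes keep them silent. HOX proteins bind DNA together with PBX and MEIS partners, and the developing kidney uses several posterior members. The lncRNA gene LOC400043, now named LINC02381, lies beside the HOXC cluster, beyond HOXC5 and on the side of SMUG1 in the RefSeq gene order of GRCh38.p14. LINC00324 is a lncRNA gene outside the HOX clusters.

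HOXA6 and HOXA7 are shown as sequence because they lie side by side, were called together with an siRNA against LINC00324 and parted with an siRNA against LOC400043. The lines give the 250 bases before each gene's RefSeq start on GRCh38.p14, read 5′ to 3′ on the minus strand, the strand of the genes. Capitals mark CCAAT boxes, spelled CCAAT or ATTGG, and GC boxes, spelled GGGCGG or CCGCCC, both searched on both strands.
HOXA6, chr7:27147775-27148024, minus strand: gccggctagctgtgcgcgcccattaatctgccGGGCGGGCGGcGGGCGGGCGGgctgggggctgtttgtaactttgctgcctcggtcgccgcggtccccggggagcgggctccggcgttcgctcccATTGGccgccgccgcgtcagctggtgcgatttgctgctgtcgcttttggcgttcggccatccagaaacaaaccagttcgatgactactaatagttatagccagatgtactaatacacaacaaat
HOXA7, chr7:27156676-27156925, minus strand: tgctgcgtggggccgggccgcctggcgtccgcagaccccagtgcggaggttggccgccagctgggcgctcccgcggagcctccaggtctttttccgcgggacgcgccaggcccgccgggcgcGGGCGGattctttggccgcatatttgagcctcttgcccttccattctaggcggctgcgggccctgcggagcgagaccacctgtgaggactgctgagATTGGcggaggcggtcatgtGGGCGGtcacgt
The starts lie 8901 bases apart. Each window holds 1 CCAAT box, while GC boxes, counted with overlaps, number 4 in the HOXA6 window and 2 in the HOXA7 window. CG dinucleotides number 27 and 28. Of 34943 RefSeq promoter windows, 32.0% hold a CCAAT box and 42.5% a GC box. TGATNNAT, a form of the site that HOX and PBX proteins bind together, occurs in 6.49% of windows and in neither of the windows printed. RefSeq lists 7 starts of HOXA3, and 2 of these lie between the starts of HOXA6 and HOXA7. A promoter entry was found for 17 of the 35 members.

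The HOX clusters also hold microRNA genes, and their RefSeq mature sequences are given because the host genes were measured on these arrays or share a seed with one that was. Capitals mark the seed, bases 2 to 8.
hsa-miR-196a-5p (MIR196A1 and MIR196A2): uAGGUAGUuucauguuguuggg
hsa-miR-196b-5p (MIR196B): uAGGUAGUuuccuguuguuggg
hsa-miR-10a-5p (MIR10A): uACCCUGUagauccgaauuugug
The miR-196 genes lie on chromosomes 17, 12 and 7, in the HOXB, HOXC and HOXA clusters, and share the seed AGGUAGU. MIR10A lies in the HOXB cluster on chromosome 17 and has the seed ACCCUGU. miR-196 is known to target HOXB8, whose transcript it cleaves. The array reads the region of a microRNA gene and not the mature microRNA, and none of the probe sets of MIR10A, MIR10B, MIR196A1 and MIR196A2 was called in any comparison by limma. At an unadjusted p under 0.05 there was 1 such result, MIR196A2 between the LINC00324 siRNAs.

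In the cells given the scramble siRNA, most HOX probe sets gave a clear signal, which is a description of these cells and not a test. As a silent reference, the 59 KRTAP genes, keratin-associated proteins of hair, were used, and a gene counts as bright if its scramble mean lay above their 95th percentile, 8.25 on the log2 scale in the LINC00324 table. Of the 35 HOX genes 21 were bright (60%), against 42.2% of all genes. The bright genes were 8 of 10 in HOXA, 7 of 10 in HOXB, 2 of 7 in HOXC and 4 of 8 in HOXD. The limit is not sharp: with a mean of 5 as the limit 34 would count as bright, and without scramble replicate 2 the count is 19. In the LOC400043 table the same 2 scramble arrays gave 21 bright HOX genes at a limit of 8.09. The signal of a probe set also depends on its probes, so the levels below give no order of transcript amounts between genes.

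The strongest signal of the HOXA cluster came from HOXA6, at 10.41 and 10.37 (log2) on the 2 scramble arrays, and that of HOXB from HOXB9, at 11.81 and 11.74. In the HOXC cluster HOXC9 led with 10.02 and 10.00, and in HOXD HOXD10 led with 11.73 and 11.67. HOXC9 and HOXD10 mark thoracic and lumbar levels of the spinal cord in the mouse. At the other end, HOXD12 read 5.01 and 4.68 and HOXC12 6.16 and 6.01, both below the median of all genes, 7.72. HOXB1, a hindbrain gene at the head end of its cluster, read 6.47 and 6.22. Cluster medians were 9.31 for HOXA, 8.84 for HOXB, 8.13 for HOXC and 8.43 for HOXD, and 28 of the 35 genes lay above the median of all genes. Scramble means of HOX genes in the LOC400043 table differed from those in the LINC00324 table by a median of -0.08, from -0.40 for HOXB4 to 0.17 for HOXD12, so levels are compared within a table only.

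**Figure D1:**
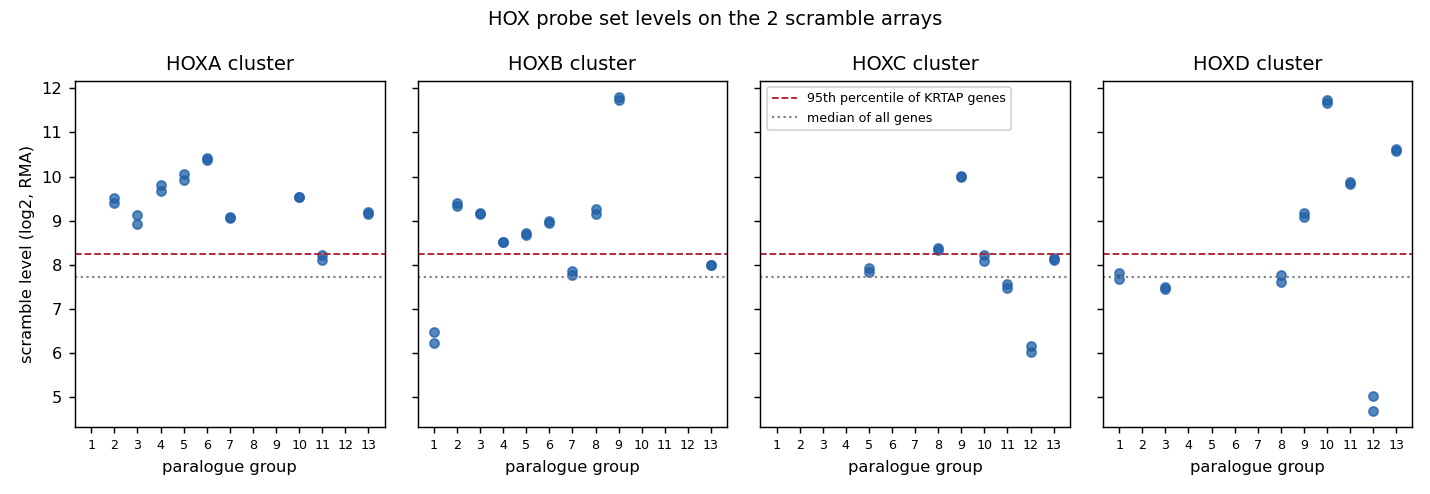
Levels of the HOX probe sets reported singly (log2 values made with RMA, vertical axis) on the 2 scramble arrays of the LINC00324 table, 1 point per array, by cluster and paralogue group (horizontal axis), with the 95th percentile of the KRTAP genes dashed and the median of all genes dotted. HOXA points lie mostly above the dashed line at 8.25, and HOXD runs from HOXD12 at 4.84 to HOXD10 at 11.70 in the mean.

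The siRNAs against LOC400043 asked what loss of this lncRNA changes, and the HOX genes moved upward with them more than downward. With the mean of both siRNAs, 10 HOX genes rose and 1 fell, together 31.4% of the members, against 17.5% of all genes. The rises, on the log2 scale, were HOXA7 (0.73), HOXC10 (0.56), HOXB2 (0.55), HOXB6 (0.41), HOXA10 (0.39), HOXB3 (0.35), HOXB4 (0.35), HOXC8 (0.34), HOXD10 (0.29) and HOXD11 (0.25), and the fall was HOXA2 (-0.26). The direction stands beside a background that leaned the other way: 28.6% of the HOX genes rose, against 6.08% of all genes, and 2.86% fell, against 11.5%. The same holds among bright genes, of which 42.9% of the HOX members rose, against 8.89% of all bright genes, and 4.76% fell, against 20.4%. The median difference over the 35 members was 0.15 (log2), against 0.02 over all genes. All 4 siRNA arrays lay above both scramble arrays for 14 HOX genes and below both for 2, HOXA2 and HOXC13, and these patterns were shown by 13.5% and 17.1% of all genes. A level from a bulk sample cannot tell fewer cells of a type from less RNA per cell. LOC400043 itself had no probe set found by name in the tables, so how far it was silenced was not analysed here.

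The rise came mainly from siRNA 2. With siRNA 2, 17 HOX genes rose and 1, HOXC5, fell, 51.4% of the members against 21.7% of all genes, and the 17 that rose are 48.6% of the members against 7.9% of all genes, while 2.86% fell, against 13.8%. Of the 21 bright members, 14 rose (66.7%), against 12.2% of all bright genes, and 0 fell by limma, against 23.6%. With siRNA 1, 3 rose and 4 fell, 20% of the members against 11.5% of all genes. The rises were HOXA7, HOXC10 and HOXB4, 8.57% of the members against 4.05% of all genes, and the falls were HOXA2, HOXA3, HOXA5 and HOXA6, 11.4% against 7.46%. Both siRNAs are compared with the same 2 scramble arrays. These counts depended on single arrays, and the counts over all genes also fell in each fit named here. The siRNA 2 count of 18 fell to 11 without siRNA 2 replicate 1 and to 10 without replicate 2, and the siRNA 1 count of 7 to 1 without either siRNA 1 array and to 4 without scramble replicate 2. The count of 11 for the mean of both was also lower without any one array. It was 2, HOXA7 and HOXC10, when both siRNAs were treated as 1 group, where 600 of all genes were called in place of 3242.

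**Figure D2:**
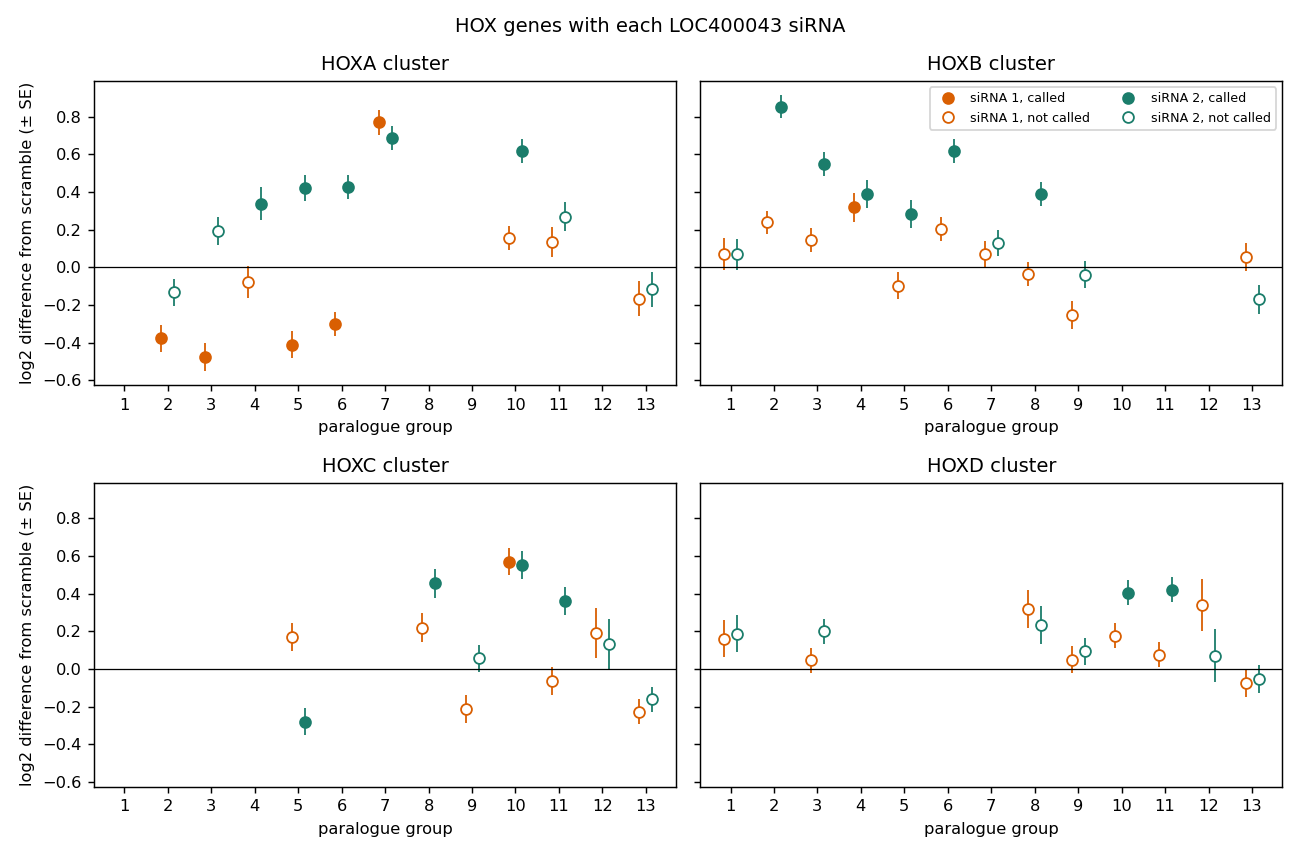
Difference from scramble on the log2 scale (vertical axis, ± SE from limma, 2 arrays per group) for the HOX genes reported singly with LOC400043 siRNA 1 and siRNA 2, by cluster and paralogue group (horizontal axis). Filled points passed an adjusted p of 0.05. The siRNA 2 points lie mostly above 0, and in HOXA the siRNAs lie on opposite sides of 0 from HOXA3 to HOXA6 and together at HOXA7.

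In the HOXA cluster, siRNA 1 gave a rise at HOXA7 beside a fall at HOXA6, while siRNA 2 gave a rise at both. HOXA7, a gene active in the thoracic region and in leukaemias driven by KMT2A fusions, read 8.98 and 9.01 in scramble, 9.76 and 9.77 with siRNA 1 and 9.64 and 9.72 with siRNA 2. All 4 siRNA arrays stood well above the scramble arrays. It rose 1.71-fold with siRNA 1 (log2 0.77 ± 0.07 SE, n = 2 per group, limma adjusted p = 0.0024) and 1.61-fold with siRNA 2 (0.69 ± 0.07, adjusted p = 0.00121), and siRNA 1 minus siRNA 2 was 0.08 (adjusted p = 0.474). Its probe set spans chr7:27193335-27196296 on the minus strand, in coordinates of the tables, whose build is not given in the sources used here. HOXA6, the next gene toward the head end, read 10.27 and 10.23 in scramble, 9.95 on both siRNA 1 arrays, and 10.68 and 10.67 with siRNA 2. Here the 3 groups did not overlap, with siRNA 1 lowest and siRNA 2 highest. HOXA6 fell by 0.30 ± 0.06 with siRNA 1 (adjusted p = 0.0267) and rose by 0.43 ± 0.06 with siRNA 2 (adjusted p = 0.00453). The calls of HOXA7 and the rise of HOXA6 were kept on leaving out each of the 6 arrays, and the fall of HOXA6 with siRNA 1 was lost on leaving out any one of them (adjusted p up to 0.168).

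On the far side of HOXA6, HOXA5 and HOXA3 had the same order of groups. At HOXA4 siRNA 1 overlapped scramble, and at HOXA2 scramble was highest. HOXA5, needed for lung formation in the mouse, read 9.99 and 9.87 in scramble, 9.50 and 9.54 with siRNA 1, and 10.33 and 10.38 with siRNA 2. It fell by 0.41 ± 0.07 with siRNA 1 (adjusted p = 0.0153) and rose by 0.42 ± 0.07 with siRNA 2 (adjusted p = 0.00772), so the mean of both siRNAs, at 0.00, shows neither. HOXA4 gave 9.73 and 9.88 in scramble and 9.65 and 9.80 with siRNA 1, which overlap, and 10.11 and 10.18 with siRNA 2, a rise of 0.34 ± 0.09 (adjusted p = 0.0342). HOXA3, which the thymus and parathyroid need in the mouse, read 8.81 and 8.68 in scramble, 8.30 and 8.23 with siRNA 1 and 8.96 and 8.92 with siRNA 2. It fell by 0.48 ± 0.07 with siRNA 1 (adjusted p = 0.0108), while the 0.19 with siRNA 2 did not pass (adjusted p = 0.114). For HOXA2, which sets the identity of the second pharyngeal arch, scramble gave 9.38 and 9.48, siRNA 1 9.08 and 9.03, and siRNA 2 9.26 and 9.33. All 4 siRNA arrays were below scramble, and the fall passed with siRNA 1 (-0.38 ± 0.07, adjusted p = 0.0209) and with the mean of both (-0.26 ± 0.06, adjusted p = 0.0341), but not with siRNA 2 (-0.13, adjusted p = 0.25). The falls of HOXA3 and HOXA5 with siRNA 1 were lost without siRNA 1 replicate 1 or 2 (adjusted p up to 0.115), and that of HOXA2 also without scramble replicate 2 (up to 0.153). The rise of HOXA5 with siRNA 2 was lost without siRNA 2 replicate 2 (0.0573). That of HOXA4 was kept without scramble replicate 2 and lost without each of the other arrays (adjusted p up to 0.164), and the fall of HOXA2 for the mean of both was lost without each array but scramble replicate 1 (up to 0.131) and with arrays centred on their medians (0.0713).

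At the posterior end of the cluster the differences were smaller or rested on siRNA 2. HOXA10, which patterns the lumbar region and the uterus, read 9.44 and 9.38 in scramble, 9.58 and 9.55 with siRNA 1, and 10.05 and 10.01 with siRNA 2. Its rise was 1.54-fold with siRNA 2 (0.62 ± 0.06, adjusted p = 0.00158) and 0.39 ± 0.06 for the mean of both (adjusted p = 0.006), while the 0.15 with siRNA 1 did not pass (adjusted p = 0.183). HOXA11 (0.14 and 0.27 with siRNA 1 and siRNA 2) and HOXA13 (-0.17 and -0.12) were called in no comparison. The HOXA10 calls were kept on leaving out each array. HOXA11 and its HOXC and HOXD paralogues are needed together for the kidney in the mouse.

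**Figure D3:**
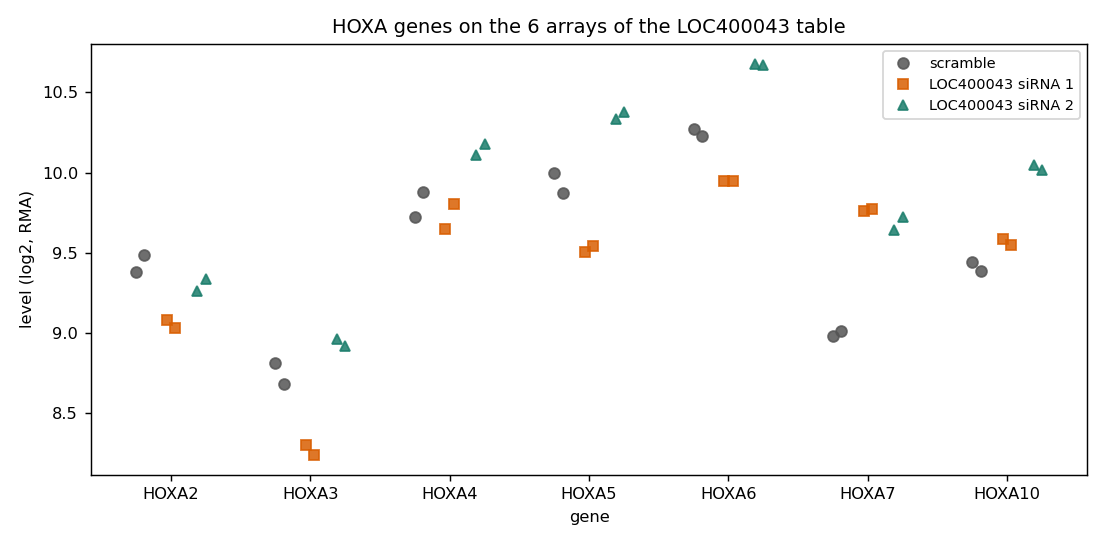
Levels (log2, RMA, vertical axis) of 7 HOXA genes (horizontal axis) on each of the 6 arrays of the LOC400043 table, 1 point per array. For HOXA3, HOXA5 and HOXA6 the siRNA 1 arrays lie below scramble and the siRNA 2 arrays above, while for HOXA7 all 4 siRNA arrays lie above scramble.

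In the HOXB cluster every called difference from scramble was a rise. HOXB2, a hindbrain gene needed for the facial nerve in the mouse, had the largest difference of any HOX gene with siRNA 2. It read 9.37 and 9.39 in scramble, 9.61 and 9.63 with siRNA 1 and 10.25 and 10.21 with siRNA 2, and all groups were apart. The rise was 1.81-fold with siRNA 2 (0.85 ± 0.06, adjusted p = 0.000659), and the 0.24 ± 0.06 with siRNA 1 did not pass (adjusted p = 0.0561). HOXB3, also a hindbrain gene, went from 9.13 on both scramble arrays to 9.31 and 9.24 with siRNA 1 and 9.67 and 9.68 with siRNA 2, a rise of 0.55 ± 0.06 with siRNA 2 (adjusted p = 0.00217). The probe set of HOXB2 spans chr17:46620017-46622393 on the minus strand in the tables' coordinates. HOXB4, known for expanding blood stem cells when overexpressed, was the member of the cluster that rose with either siRNA: scramble gave 8.08 and 8.15, siRNA 1 8.40 and 8.47, and siRNA 2 8.44 and 8.57. Its differences were 0.32 ± 0.08 (adjusted p = 0.0429) and 0.39 ± 0.08 (adjusted p = 0.0134), and the call with siRNA 1 was lost on leaving out any single array of the 6 (adjusted p up to 0.239). Its calls with siRNA 2 and with the mean of both were lost without siRNA 2 replicate 2 (0.0876) and siRNA 1 replicate 2 (0.0608), while those of HOXB2 and HOXB3 were kept without any one array.

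The central genes HOXB5, HOXB6 and HOXB8 rose with siRNA 2 and passed the test with siRNA 1 in no case. HOXB6, active in the limb bud and in early red cell precursors, read 8.95 and 8.99 in scramble, 9.17 and 9.18 with siRNA 1 and 9.56 and 9.62 with siRNA 2, a rise of 0.62 ± 0.06 with siRNA 2 (adjusted p = 0.00156). Its probe set overlaps that of LOC404266, now HOXB-AS3, on the opposite strand, so signal of the 2 genes could be mixed if the labelled RNA does not keep the strand. HOXB8, a regulator of myeloid cells, read 9.10 and 9.05 in scramble, 9.02 and 9.06 with siRNA 1, which overlap, and 9.48 and 9.45 with siRNA 2, a rise of 0.39 ± 0.06 (adjusted p = 0.00698). HOXB5, used by enteric neural crest cells, gave 8.63 and 8.57, then 8.44 and 8.57, then 8.88 and 8.89 in the same order of groups, a rise of 0.28 ± 0.07 with siRNA 2 (adjusted p = 0.0338). HOXB9, with the strongest signal of the cluster, read 11.74 and 11.65 in scramble, 11.49 and 11.39 with siRNA 1 and 11.62 and 11.68 with siRNA 2. Neither of its differences, -0.25 (adjusted p = 0.071) and -0.04 (adjusted p = 0.748), passed. The HOXB6 rise was kept without any one array, that of HOXB8 was lost without siRNA 2 replicate 1 (adjusted p = 0.0541), and that of HOXB5 was lost without each array but scramble replicate 1 (up to 0.144). HOXB1, HOXB7 and HOXB13 were called in no comparison, with differences from -0.17 to 0.13 for the siRNAs against scramble.

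In the HOXC cluster, the one beside LOC400043, HOXC5 fell with siRNA 2 while HOXC8, HOXC10 and HOXC11 rose. HOXC5 is the nearest of the members analysed, which do not include HOXC4 and HOXC6. It read 7.89 and 7.74 in scramble, 7.98 on both siRNA 1 arrays, and 7.54 and 7.52 with siRNA 2. The siRNA 2 arrays were the lowest and the siRNA 1 arrays the highest, the reverse of the order at HOXA5. HOXC5 fell by 0.28 ± 0.07 with siRNA 2 (adjusted p = 0.0367), and the 0.17 with siRNA 1 did not pass (adjusted p = 0.195). HOXC8, which sets brachial motor neurons in the mouse, read 8.25 and 8.28 in scramble, 8.56 and 8.40 with siRNA 1 and 8.74 and 8.69 with siRNA 2. It rose with siRNA 2 (0.46 ± 0.08, adjusted p = 0.00768), and all 4 siRNA arrays lay above scramble. HOXC9, which sets thoracic motor neurons in the mouse, gave 9.99 and 9.95 in scramble, 9.79 and 9.73 with siRNA 1 and 9.96 and 10.09 with siRNA 2, and neither -0.21 nor 0.06 passed (adjusted p = 0.114 and 0.642). The HOXC5 call was kept without scramble replicate 2 and lost without each of the other arrays (adjusted p up to 0.157), and it was lost with a second quantile normalization (0.0823) and with arrays centred on their medians (0.0744). The HOXC8 rise with siRNA 2 was lost without siRNA 2 replicate 1 (0.0591), and that for the mean of both also without either scramble array or siRNA 1 replicate 1 (up to 0.0602).

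HOXC10, a gene of lumbar motor neurons in the mouse, was the HOXC member that rose with either siRNA. Scramble gave 7.94 and 8.06, siRNA 1 8.55 and 8.60, and siRNA 2 8.59 and 8.52. The rises were 1.49-fold (0.57 ± 0.07, adjusted p = 0.00583) and 1.47-fold (0.55 ± 0.07, adjusted p = 0.00322), and the siRNAs differed by 0.02 (adjusted p = 0.917). The call with siRNA 1 was lost without siRNA 1 replicate 1 or replicate 2 (adjusted p up to 0.0689), and the others were kept without any one array. The probe set of HOXC10 spans chr12:54378946-54384063 on the plus strand in the tables' coordinates. HOXC11 read 7.58 and 7.47 in scramble, 7.49 and 7.42 with siRNA 1 and 7.84 and 7.92 with siRNA 2, a rise with siRNA 2 of 0.36 ± 0.07 (adjusted p = 0.0163) that was lost without scramble replicate 2 or either siRNA 2 array (up to 0.102). HOXC13, which hair and nails need, gave 8.04 and 8.09, then 7.87 and 7.82, then 7.95 and 7.86. Its differences of -0.23 and -0.16 did not pass (adjusted p = 0.083 and 0.149), although all 4 siRNA arrays were below scramble. HOXC12 was not called. Of the 7 HOXC genes only HOXC8 and HOXC9 were bright in scramble, and the others lay below the limit of 8.09.

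**Figure D4:**
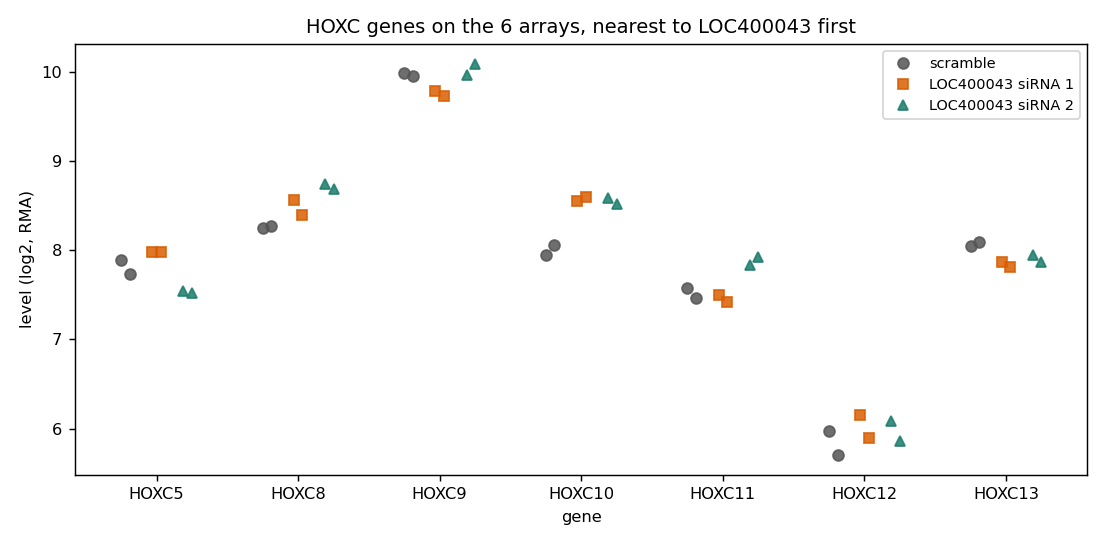
Levels (log2, RMA, vertical axis) of the 7 HOXC genes analysed on each of the 6 arrays of the LOC400043 table, 1 point per array, from HOXC5, of these 7 the nearest to LOC400043, to HOXC13 (horizontal axis). HOXC10 stands out with 4 siRNA arrays between 8.52 and 8.60 above scramble at 7.94 and 8.06, while HOXC5 has its siRNA 2 arrays lowest.

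In the HOXD cluster 2 neighbouring posterior genes rose, both with siRNA 2 and with the mean of both siRNAs. HOXD10, a gene of hindlimb and lumbar motor neurons in the mouse, read 11.64 and 11.60 in scramble, 11.84 and 11.76 with siRNA 1 and 12.01 and 12.05 with siRNA 2, a rise with siRNA 2 of 0.40 ± 0.07 (adjusted p = 0.00684). HOXD11, which shapes the forearm and the kidney together with HOXA11 in the mouse, read 9.73 and 9.79 in scramble, 9.84 and 9.83 with siRNA 1 and 10.15 and 10.21 with siRNA 2. It rose with siRNA 2 by 0.42 ± 0.06 (adjusted p = 0.00554), and the groups were in the same order for both genes, with siRNA 1 between the others. With siRNA 1 the differences were 0.18 and 0.08 (adjusted p = 0.142 and 0.497). With siRNA 2 the HOXD11 call was kept without any one array, and that of HOXD10 was lost without siRNA 2 replicate 2 (0.0532). For the mean of both, HOXD11 was lost without any one array (adjusted p up to 0.0952) and HOXD10 without each array but scramble replicate 1 (up to 0.0695). The other 6 HOXD genes were not called against scramble, HOXD3 at 7.33 and 7.39 in scramble, 7.40 and 7.41 with siRNA 1 and 7.60 and 7.52 with siRNA 2 among them. HOXD8 differed by 0.32 ± 0.10 with siRNA 1 (adjusted p = 0.0966), and its probe set overlaps that of LOC100129455 on the opposite strand. HOXD13, which patterns the digits, differed by -0.08 and -0.05 with siRNA 1 and siRNA 2.

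By position, the calls with siRNA 2 were most frequent among the central genes. Of the 12 genes of paralogue groups 4 to 8, 9 rose and 1 fell, with a median difference of 0.39. Of the 8 genes of groups 1 to 3, 3 rose (median 0.20), and of the 15 genes of groups 9 to 13, 5 rose (median 0.09), against 0.01 over all genes. With siRNA 2, 7.9% of all genes rose and 13.8% fell. The 9 central genes that rose were all bright in scramble, and of all members 14 of 21 bright genes and 3 of 14 others rose with siRNA 2. With siRNA 1, 2 central genes rose and 2 fell, 2 of groups 1 to 3 fell and 1 of groups 9 to 13 rose. For the mean of both, 4 central genes rose, 2 of groups 1 to 3 rose and 1 fell, and 4 of groups 9 to 13 rose. The median for the mean of both was 0.15 in each of these regions. Among the posterior genes, the calls against scramble lay in groups 10 and 11. All 3 genes of group 10, HOXA10, HOXC10 and HOXD10, rose with siRNA 2 and with the mean of both siRNAs, and 2 of 3 in group 11 rose with siRNA 2. None of the 3 genes of group 9 and none of the 4 of group 13 was called against scramble by limma. Of all genes, 11.5% were called with siRNA 1, 21.7% with siRNA 2 and 17.5% for the mean of both. With 3 or 4 genes, a count of 0 lies near these shares. At an unadjusted p under 0.05 there were 2 in group 9, with siRNA 1, and 1 in group 13, with siRNA 1 and with the mean of both. Of the 18480 genes, 5002 with siRNA 1 and 5755 for the mean of both had such a p. The 4 group 13 differences lay below 0, from -0.17 to -0.05 with siRNA 2 and from -0.19 to -0.06 for the mean of both, while with siRNA 1 they ran from -0.23 to 0.05, with 1 of 4 above 0. Cluster medians with siRNA 2 were 0.35 for HOXA, 0.34 for HOXB, 0.14 for HOXC and 0.19 for HOXD. With siRNA 1 they were -0.12, 0.07, 0.17 and 0.12. Differences between clusters or between positions were not tested.

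The siRNAs against LOC400043 differed from each other at 14 HOX genes, 40% of the members against 17.1% of all genes. With siRNA 1, 13 were lower than with siRNA 2 (37.1% against 7.5%), and 1, HOXC5, was higher (2.86% against 9.63%). The largest differences, siRNA 1 minus siRNA 2, lay in HOXA: -0.83 ± 0.07 for HOXA5 (adjusted p = 0.00104), -0.73 ± 0.06 for HOXA6 (adjusted p = 0.00104) and -0.67 ± 0.07 for HOXA3 (adjusted p = 0.00208). HOXB2 followed with -0.61 ± 0.06 (adjusted p = 0.00164), and HOXA10, HOXB8, HOXC11, HOXA4, HOXB6, HOXB3, HOXB5, HOXD11 and HOXC9 lay between -0.46 and -0.27. HOXC5 was 0.45 ± 0.07 higher with siRNA 1 (adjusted p = 0.00831). Leaving out any one siRNA array lowered the count of 14, and the count over all genes fell as well. The calls for HOXA3, HOXA5, HOXA6, HOXA10 and HOXB2 were kept on leaving out each of the 6 arrays, while the other 9 were lost without at least 2 of the siRNA arrays (adjusted p up to 0.245).

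With the siRNAs against LINC00324 few HOX genes were called. LINC00324 itself had a scramble mean of 5.80 (log2) and differed by -0.60 with siRNA 1 and by -0.38 with siRNA 2, neither of which passed (limma adjusted p = 0.184 and 0.308). With LOC400043 siRNA 1 and siRNA 2 it differed by -0.25 and -0.22, which did not pass either (limma adjusted p = 0.0931 and 0.0906). No HOX gene was called by limma for the mean of both siRNAs (0.476% of all genes were called) or for siRNA 1 (0.498%). At an unadjusted p under 0.05 there were 13 and 15 of the 35 members, against 2610 and 2435 of the 18480 genes. With siRNA 2, HOXA6 and HOXA7 rose, 5.71% of the members against 1.85% of all genes, and 0.503% of all genes rose. The median difference over the 35 members was 0.19 with siRNA 1 and 0.06 with siRNA 2, against 0.02 and 0.01 over all genes. All 4 siRNA arrays lay above both scramble arrays for 13 HOX genes and below both for 0, and 7.87% and 11.8% of all genes showed these patterns.

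The called genes are the neighbours whose upstream sequences are printed above. HOXA6 read 10.41 and 10.37 in scramble, 10.64 and 10.66 with siRNA 1 and 10.95 and 10.92 with siRNA 2. Its rise with siRNA 2 was 1.46-fold (0.54 ± 0.07, adjusted p = 0.0284), and the 0.25 with siRNA 1 did not pass (adjusted p = 0.223). HOXA7 gave 9.09 and 9.06 in scramble, 9.21 and 9.37 with siRNA 1 and 9.67 and 9.58 with siRNA 2, a rise of 0.55 ± 0.09 with siRNA 2 (adjusted p = 0.0408). For both genes siRNA 1 lay between scramble and siRNA 2 without overlap. On leaving out each array in turn, the differences with siRNA 2 ran from 0.52 to 0.56 for HOXA6 and from 0.51 to 0.60 for HOXA7. Neither call held without scramble replicate 1 or 2 or siRNA 2 replicate 1 or 2. Calls over all genes were lost in these fits as well, so the loss was not particular to HOX genes. Without either siRNA 1 array more genes were called, among HOX genes and over all genes.

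HOXC10, which was not bright in scramble, had the largest HOX difference with LINC00324 siRNA 1, and it did not pass. It read 8.08 and 8.22 in scramble, 8.81 and 9.08 with siRNA 1 and 8.46 and 8.29 with siRNA 2, a difference of 0.79 ± 0.12 with siRNA 1 (adjusted p = 0.0674) and of 0.23 with siRNA 2 (adjusted p = 0.473). HOXB6, at 9.0 and 8.94 in scramble, gave 9.47 and 9.54 with siRNA 1, a difference of 0.53 ± 0.08 (adjusted p = 0.0646). The siRNA 1 arrays differed more from each other than those of the other groups at HOXC10.

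Between the LINC00324 siRNAs, HOXC13 and HOXD3 differed, 5.71% of the members against 3.07% of all genes, both higher with siRNA 1 (2.28% of all genes). HOXC13 read 8.11 and 8.14 in scramble, 8.20 and 8.43 with siRNA 1 and 7.67 and 7.62 with siRNA 2, and siRNA 1 minus siRNA 2 was 0.67 ± 0.10 (adjusted p = 0.0291). For HOXD3, scramble gave 7.44 and 7.49, siRNA 1 7.79 and 7.81, and siRNA 2 7.07 and 7.34, a difference of 0.60 ± 0.11 (adjusted p = 0.0418). In both genes scramble lay between the siRNAs, and no difference from scramble was called. Neither gene was bright in scramble. On leaving out each array in turn, siRNA 1 minus siRNA 2 ran from 0.55 to 0.79 for HOXC13 and from 0.47 to 0.73 for HOXD3. The HOXC13 call was lost without scramble replicate 1 or 2 or siRNA 2 replicate 1 or 2. The HOXD3 call was lost without any one array. Calls over all genes also fell without a scramble or siRNA 2 array.

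**Figure D5:**
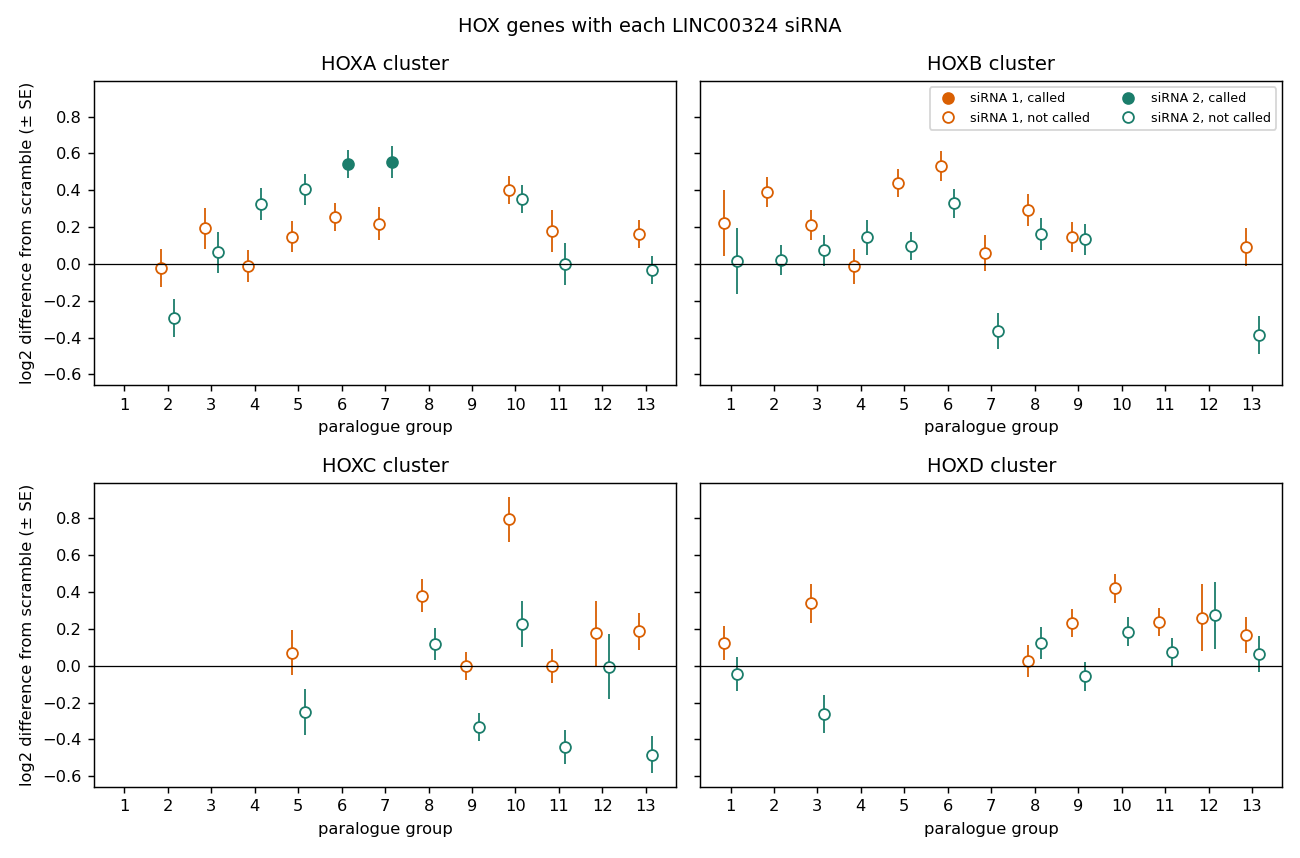
Difference from scramble on the log2 scale (vertical axis, ± SE from limma, 2 arrays per group) for the HOX genes reported singly with LINC00324 siRNA 1 and siRNA 2, by cluster and paralogue group (horizontal axis). Filled points, HOXA6 and HOXA7 with siRNA 2, passed an adjusted p of 0.05, and HOXC10 with siRNA 1 is the highest open point at 0.79.

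The lncRNA comparisons use the same 2 scramble arrays, so values are set side by side without a test of likeness. For the mean of both siRNAs, HOXA10 differed by 0.39 with LOC400043 and 0.38 with LINC00324, HOXB6 by 0.41 and 0.43, and HOXC10 by 0.56 and 0.51. HOXA6 differed by 0.06 with LOC400043 and 0.40 with LINC00324, and HOXA7 by 0.73 and 0.39. The other genes called for the LOC400043 mean were HOXB2 (0.55 and 0.21), HOXB3 (0.35 and 0.14), HOXB4 (0.35 and 0.07) and HOXC8 (0.34 and 0.25). HOXD10 (0.29 and 0.30), HOXD11 (0.25 and 0.15) and HOXA2 (-0.26 and -0.16) were also among them. None of the LINC00324 values in this set passed, with limma adjusted p between 0.0714 and 0.771. Over all comparisons 23 HOX genes were called at least once, and 12 were called in none: HOXA11, HOXA13, HOXB1, HOXB7, HOXB9, HOXB13, HOXC12, HOXD1, HOXD8, HOXD9, HOXD12 and HOXD13.

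Among genes that work with the HOX clusters, Polycomb genes were called in both directions against scramble with the LOC400043 siRNAs, and the called cofactors fell. With LOC400043 siRNA 2 the differences ran from -0.57 to 0.39 among Polycomb genes and from -0.54 to 0.09 among cofactors. Of 9 cofactor genes of the PBC and MEIS families 8 were measured, and with the LOC400043 siRNAs PKNOX2, a MEIS relative, fell for the mean of both (-0.39 ± 0.06, adjusted p = 0.008) and MEIS1 fell with siRNA 2 (-0.26 ± 0.07, adjusted p = 0.0492). The falls were 12.5% of the measured cofactors for the mean of both and 25% with siRNA 2, against 11.5% and 13.8% of all genes. Of 29 Polycomb genes 28 were measured, and 3 rose and 3 fell for the mean of both, 10.7% in each direction, against 6.08% and 11.5% of all genes. SUZ12 (0.27 ± 0.06), a core subunit of Polycomb repressive complex 2, BMI1 (0.26 ± 0.07), a subunit of complex 1, and AEBP2 (0.23 ± 0.06), an accessory subunit of complex 2, rose. JARID2 (-0.35 ± 0.06), another accessory subunit of complex 2, and CBX7 (-0.31 ± 0.07) and RYBP (-0.27 ± 0.06), alternative subunits of complex 1, fell. With siRNA 2, 7 Polycomb genes rose, 25% against 7.9% of all genes, and 3 fell, 10.7% against 13.8%. With siRNA 1 YAF2, a relative of RYBP, fell (-0.30 ± 0.07, adjusted p = 0.0369), 3.57% of the measured list against 7.46% of all genes. YAF2 went the other way with siRNA 2, as 1 of the 7 that rose. The list medians with siRNA 2 were 0.05 for Polycomb genes and -0.06 for cofactors, against 0.01 over all genes. The falls of PKNOX2 and JARID2 were kept on leaving out each of the 6 arrays, and every other call named for these lists was lost without at least 1 array (adjusted p up to 0.244).

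Of 17 Trithorax genes and H3K27 demethylases 16 were measured, and with LOC400043 siRNA 2 RBBP5 rose (0.31 ± 0.07, adjusted p = 0.028) and ASH2L fell (-0.33 ± 0.06, adjusted p = 0.0131), both core subunits of the methyltransferase complexes. Each is 6.25% of the measured list, against 7.9% of all genes that rose and 13.8% that fell. Of 19 upstream and sister homeobox genes 18 were measured, and EN2, a midbrain and hindbrain homeobox gene, fell for the mean of both (-0.31 ± 0.06, adjusted p = 0.012), as did GBX1 with siRNA 2 (-0.53 ± 0.14, adjusted p = 0.0398). The falls were 5.56% of this list for the mean of both and 11.1% with siRNA 2, against 11.5% and 13.8% of all genes. Of 25 noncoding genes of the HOX clusters 6 were measured, none bright, and with the LOC400043 siRNAs limma called none and none had an unadjusted p under 0.05. The calls of RBBP5 were lost without any one array, those of ASH2L without siRNA 2 replicate 1, and those of EN2 and GBX1 without at least 1 siRNA array (adjusted p up to 0.181). With the LINC00324 siRNAs no gene of these lists was called by limma in any comparison. At an unadjusted p under 0.05 there were 12 to 19 of the 76 measured, against 2435 to 3253 of the 18480 genes.

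Most of the measured markers of the line were bright in scramble, and some markers moved with the LOC400043 siRNAs. Of 8 HEK-293 markers 7 were measured and 5 were bright, VIM, KRT18, NEFM and EYA1 among them, while PAX2 and KRT8 were not. Of all genes 42.2% were bright in the LINC00324 table. None of 5 fibroblast, 4 squamous and 4 blood markers was bright, with scramble means up to 8.11 in the LINC00324 table. VIM, the intermediate filament vimentin, moved with the LOC400043 siRNAs in the same directions as HOXA5 and HOXA6, falling by 0.77 ± 0.07 with siRNA 1 and rising by 0.45 ± 0.07 with siRNA 2. NEFM, a neurofilament gene, fell with either, by 0.47 ± 0.06 and 1.31 ± 0.06. EYA1, a kidney and ear regulator, rose with siRNA 2 (0.47 ± 0.08). KRT18 fell with siRNA 1 (-0.31 ± 0.07). Of the 7 HEK-293 markers, 57.1% fell with siRNA 1, against 7.46% of all genes. With siRNA 2, 28.6% of them rose and 28.6% fell, against 7.9% and 13.8% of all genes. For the mean of both 28.6% fell, against 11.5%. Of the fibroblast genes LUM fell with siRNA 2 (-0.40), 20% of the 5 against 13.8% of all genes. The VIM call with siRNA 1 and the NEFM calls with siRNA 2 and with the mean of both were kept on leaving out each array, and the other calls named for these markers were lost without at least 1 (adjusted p up to 0.240). The part of these shifts in the HOX values was not tested.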

How the data were processed

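Total RNA of HEK-293 cells was hybridised to 10 Affymetrix arrays. The submitters' processing notes name RMA and limma; tool versions, genome build and annotation are not stated there or elsewhere in the sources used here. The authors deposited 2 tables of log2 values, made with RMA, of 6 arrays each. RMA equalizes the distributions of the arrays of a table, so a shift shared by all genes would not be seen, and it compresses differences of dim probe sets. Each deposited table also holds the authors' log2 difference and unadjusted p-value, which were compared with the fit and not used as results; the differences matched within 0.0005. The tables were normalized separately, and each was fitted alone.

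A linear model with the 3 groups of a table, leaving 3 residual degrees of freedom per gene, was fitted with limma 3.58.1 (R 4.3.3; lmFit and moderated by eBayes, two-sided). Scramble was subtracted from siRNA 1, from siRNA 2 and from the mean of both, and siRNA 2 was subtracted from siRNA 1. P-values of a contrast were adjusted by Benjamini-Hochberg over all 18480 genes, and "called", "rose" and "fell" mean an adjusted p under 0.05. No gene was filtered; 1 member and 1 marker enter the counts and are not reported singly here. The fit was tested on simulated data. The members, gene lists and settings were chosen with earlier results of these data known. Per-array values were given by rule for members called in any contrast and for the strongest member of each cluster, and other list genes if called (up to 6 per list). Coordinates are those of the tables, and sequences are RefSeq's on GRCh38.p14.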

Additional observations from a re-analysis of the deposited data

Results flagged for a closer look

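Each result here is a HOX gene whose difference from scramble was not the same with the 2 siRNAs against one lncRNA, by the limma contrast of siRNA 1 minus siRNA 2 (adjusted p under 0.05, 2 arrays per group). For LOC400043, 13 genes were lower with siRNA 1. In the HOXA cluster these were HOXA5 (-0.83 on the log2 scale), HOXA6 (-0.73), HOXA3 (-0.67), HOXA10 (-0.46) and HOXA4 (-0.42). In HOXB they were HOXB2 (-0.61), HOXB8 (-0.43), HOXB6 (-0.41), HOXB3 (-0.40) and HOXB5 (-0.38). In HOXC they were HOXC11 (-0.42) and HOXC9 (-0.27), and in HOXD the gene was HOXD11 (-0.35). HOXC5 was higher with siRNA 1 (0.45). For LINC00324, HOXC13 (0.67) and HOXD3 (0.60) were higher with siRNA 1. No group had enough arrays to look for an outlying array.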

How the results depend on the processing

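An intensity trend in the variance gave 13 called HOX genes with LOC400043 siRNA 1 (7 in the reported fit), with 3479 of all genes called in place of 2128. With LINC00324 it gave 7 for the mean of both siRNAs, 8 for siRNA 1, 9 for siRNA 2 and 14 for siRNA 1 minus siRNA 2. Over all 18480 genes these LINC00324 fits called 1073, 931, 1500 and 1859, in place of 88, 92, 341 and 567. A second quantile normalization gave 5, 5, 6 and 7 in these LINC00324 comparisons, whose reported counts are 0, 0, 2 and 2. Over all genes it called 307, 340, 781 and 1150. Centring on array medians left 1 of 2 for siRNA 1 minus siRNA 2, with 495 of all genes called in place of 567. Treating both siRNAs as 1 group gave 2 in place of 11 for LOC400043, and 600 in place of 3242 over all genes. Bright HOX genes numbered 34 with a mean log2 of 5 as the limit.

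With the replicate number as a block, LINC00324 siRNA 2 had 1 call in place of 2, and 301 in place of 341 over all genes. The LOC400043 counts were 14, 8, 19 and 16 for the mean of both, siRNA 1, siRNA 2 and siRNA 1 minus siRNA 2. Over all genes these were 4010, 2822, 4814 and 3777, in place of 3242, 2128, 4016 and 3165. Whether the numbers pair the samples cannot be told from the values, which are mixed. The replicate deviations of LINC00324 correlated at 0.60, -0.19 and -0.38 between groups, and those of LOC400043 at 0.23, 0.37 and 0.09. Leaving out each array, with the lone array of a group assumed to vary like the others, gave 7 to 9 calls for the LOC400043 mean, 1 to 5 for siRNA 1, 10 to 16 for siRNA 2 and 5 to 16 for siRNA 1 minus siRNA 2. For LINC00324 the ranges were 0 to 0, 0 to 0, 0 to 4 and 0 to 5, and bright genes numbered 19 to 21. Calls kept on leaving out each array in turn were 6 of 11, 1 of 7, 8 of 18 and 5 of 14 for LOC400043, and 0 of 2 and 0 of 2 for LINC00324.

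Over single genes, contrasts and alternatives, 1932 values stayed on their side of the threshold, 97 passed it and 131 no longer passed, and none changed direction after being called. The scalings moved the differences of the 54 calls by up to 0.08. They ended 3 of them: HOXC5 with LOC400043 siRNA 2 under both, and under centring HOXA2 for the LOC400043 mean and HOXD3 between the LINC00324 siRNAs. For list and marker genes, the same alternatives were chosen after seeing the data, and no direction turned. Counts over all genes also shifted under the alternatives and on leaving out arrays, and the cause of these changes was not tested. The planned contrast of LOC400043 siRNAs minus LINC00324 siRNAs and the fits on the table of all 10 arrays were not run, because its scramble and LINC00324 values are those of one deposited table and its LOC400043 values those of the other.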
